A study of Rattus norvegicus with 6 samples.

Results

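Collagen chain genes encode the alpha chains from which collagen trimers are built. They were taken here as every gene whose symbol is Col, a type number, the letter a and a chain number, which gave 35 of the 18237 genes in the count tables. RNA sequencing covered 6 libraries of rat heart cells in culture, 3 given a control siRNA (siNT) and 3 given an siRNA against the metallothionein gene Mt2 (siMt2). The cell type label is NRVM, commonly used for ventricular myocytes of newborn rats, whereas the growth text speaks of embryonic tissue. All 6 were kept in DMEM with 10% serum, and the text shared by both groups also names dexamethasone, isobutylmethylxanthine and insulin without saying whether these cells received them. No age or strain is used here. The labels do not say whether replicates are separate cultures, so each p-value covers spread among the sequenced libraries only, and that spread may be technical.

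Collagen chains carry long stretches in which glycine recurs at regular steps, fold as trimers in the endoplasmic reticulum and are secreted. Fibrillar collagens (types I, III, V and XI among them) make fibrils, type IV chains make the sheet of basement membranes, and type VI makes beaded microfilaments next to cells. FACIT collagens, whose helices are interrupted, decorate fibrils, and type VIII makes short-chain networks in vessel walls and remodeling tissue. In the heart, fibroblasts are the main source of fibrillar collagen. Chains of one trimer are often needed in fixed proportion, so the ratio of partner chains in a library is a readout of its own.

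Gene counts summed to between 2859759 (siMt2 replicate 3) and 6817777 (siMt2 replicate 1) per library. A count of 3, the limit that a count of 0 allows, equalled 0.437 to 1.05 CPM, which are counts scaled to TMM-normalized library size. The targeted transcript was not measurably lower: Mt2a stood at 90.4, 169 and 93.0 CPM in siNT and at 70.4, 87.0 and 141 CPM in the libraries labelled siMt2 (log2 fold change -0.28, SE 0.42, edgeR adjusted p = 0.631). Directions below are therefore between libraries carrying these labels. Of 10 cardiomyocyte markers, 1 was missing from the tables and 8 had 2 to 51 counts over all libraries together, among them cardiac troponin I (Tnni3) with 3. The only one with a clear level was Tnnt2, at 27.1 ± 1.37 and 54.3 ± 5.17 CPM (mean ± SD, as in all pairs of values below, n = 3 libraries each). Of the collagen markers, Col1a1 stood at 4568 CPM or more in every library and Col8a1 at 35.3 to 112 CPM. Col6a3 stood at 1.26, 0 and 0.153 CPM in siNT and at 12.8, 18.4 and 10.5 CPM in siMt2.

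Sequences in front of collagen genes that the results turn on are shown first, from the RefSeq promoter table of build GRCr8, which held 27 of the 35 genes. Only bases outside annotated genes are printed. Capitals mark matches, on either strand, to 4 motifs that do not overlap one another in these stretches. The GC box was searched as GGGCGG. The box known from many housekeeping promoters was searched as CCAAT. For the box bound by the TATA-binding protein the letters were TATAAA. For the AP-1 site they were TGANTCA, with N for any base. Col4a1 and Col4a2 are neighbours that are read away from each other from starts only 76 bases apart, so that 1 stretch lies in front of both; it is shown because both genes fell, by unequal amounts. It lies at chr16:84885521-84885596, is written on the plus strand, the strand of Col4a1, and is 78.9% G or C.
Col4a1-Col4a2: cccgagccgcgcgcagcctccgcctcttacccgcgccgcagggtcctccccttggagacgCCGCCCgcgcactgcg
It held 1 GC box, a match that 18.1% of 33469 promoters held in the 76 bases before the start, and none of the other motifs.

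For type VI collagen, the bases in front of Col6a3, which rose, and of its partner Col6a1, which stayed close to 0, are set side by side. The Col6a3 stretch (chr9:98887061-98887208, minus strand) begins 250 bases before the start and ends 102 bases before it, where an annotated gene begins. Whether that gene is another or Col6a3 itself was not determined. Bases nearer the start of Col6a3 were not searched, unlike those of Col6a1.
Col6a3: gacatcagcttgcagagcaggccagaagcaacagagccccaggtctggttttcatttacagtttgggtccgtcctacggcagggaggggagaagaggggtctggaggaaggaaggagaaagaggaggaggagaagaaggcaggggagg
The Col6a1 stretch (chr20:11905440-11905689, plus strand) covers the 250 bases before the start.
Col6a1: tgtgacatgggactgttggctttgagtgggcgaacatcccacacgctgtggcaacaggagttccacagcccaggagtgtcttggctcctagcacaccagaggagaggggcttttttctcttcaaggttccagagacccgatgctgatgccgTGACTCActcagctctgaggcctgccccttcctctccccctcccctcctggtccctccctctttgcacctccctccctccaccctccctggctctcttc
Col6a1 held 1 AP-1 site, which 6.34% of promoters held in these 250 bases, and the Col6a3 stretch of 148 bases matched none of the 4 motifs. The shares of promoters with a match in that same stretch were 16.2% for the GC box, 21.1% for the CCAAT box, 7.6% for the TATA box and 3.83% for the AP-1 site.

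Of the 35 collagen genes, 19 had enough counts to be tested and 16 did not. With siMt2 set against siNT, 9 of the 19 were called higher, 2 were called lower and 8 were not called. Over all 11726 genes tested, 50.9% were called, 25.8% higher and 25.1% lower, so the 57.9% of tested collagens that were called lay near the background. The groups did not overlap for 11 of the 19 (57.9%), against 57.6% of all genes tested. The median log2 fold change of the 19 was 0.37, beside 0.000434 for all genes tested. The genes that rose were Col6a3, Col8a1, Col5a1, Col20a1, Col18a1, Col1a1, Col12a1, Col5a3 and Col8a2, and those that fell were Col4a2 and Col4a1. Col6a3 is included in these counts and shares although it passed the filter only through siMt2, the group in which it is high. Its direction therefore carries no weight here.

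**Figure D1:**
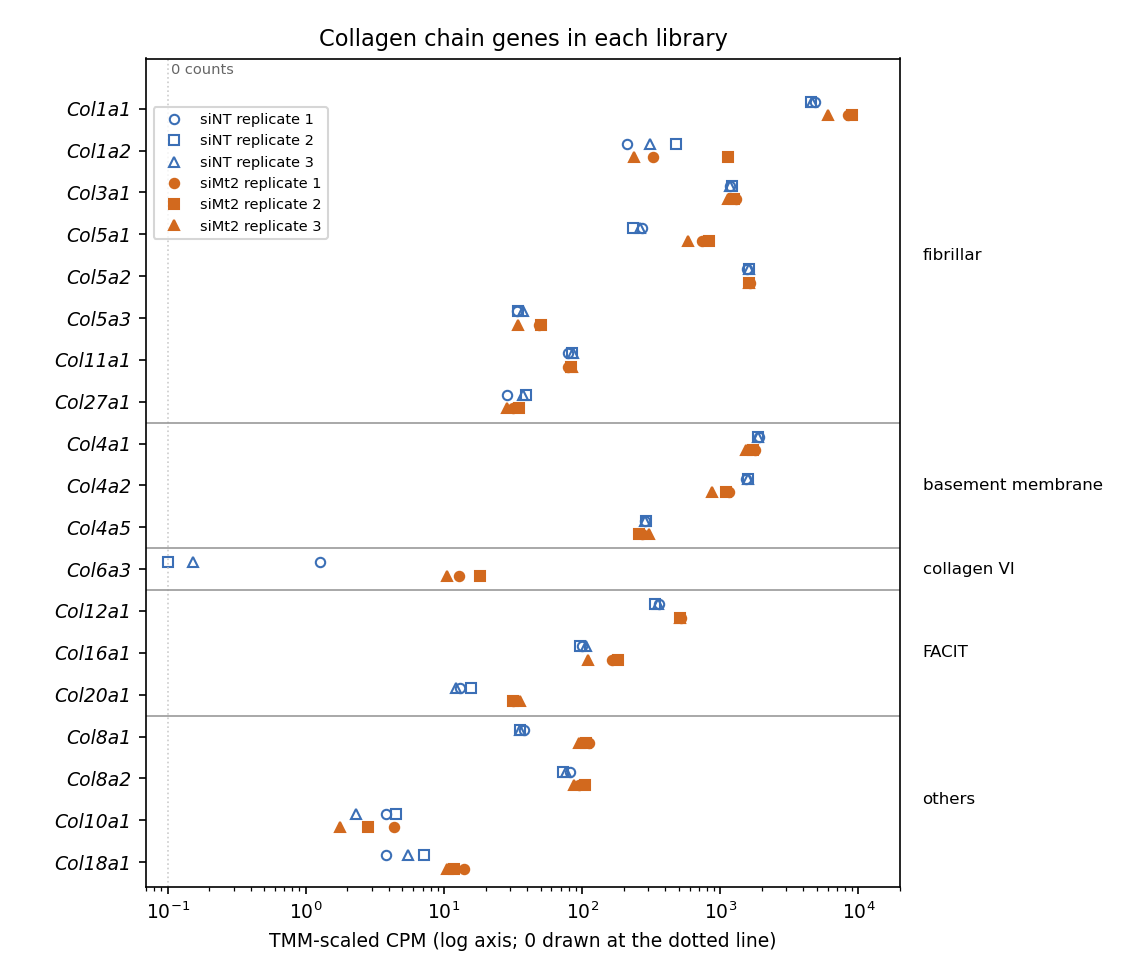
TMM-scaled CPM on a log axis for the 19 tested collagen genes, ordered by class, with 1 point per library (open blue siNT, filled orange siMt2; symbols give the replicate). Col6a3 moves from near 0 to between 10.5 and 18.4 CPM, Col5a2 stays in place, and the points of Col1a2 spread widely in both groups.

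**Figure D2:**
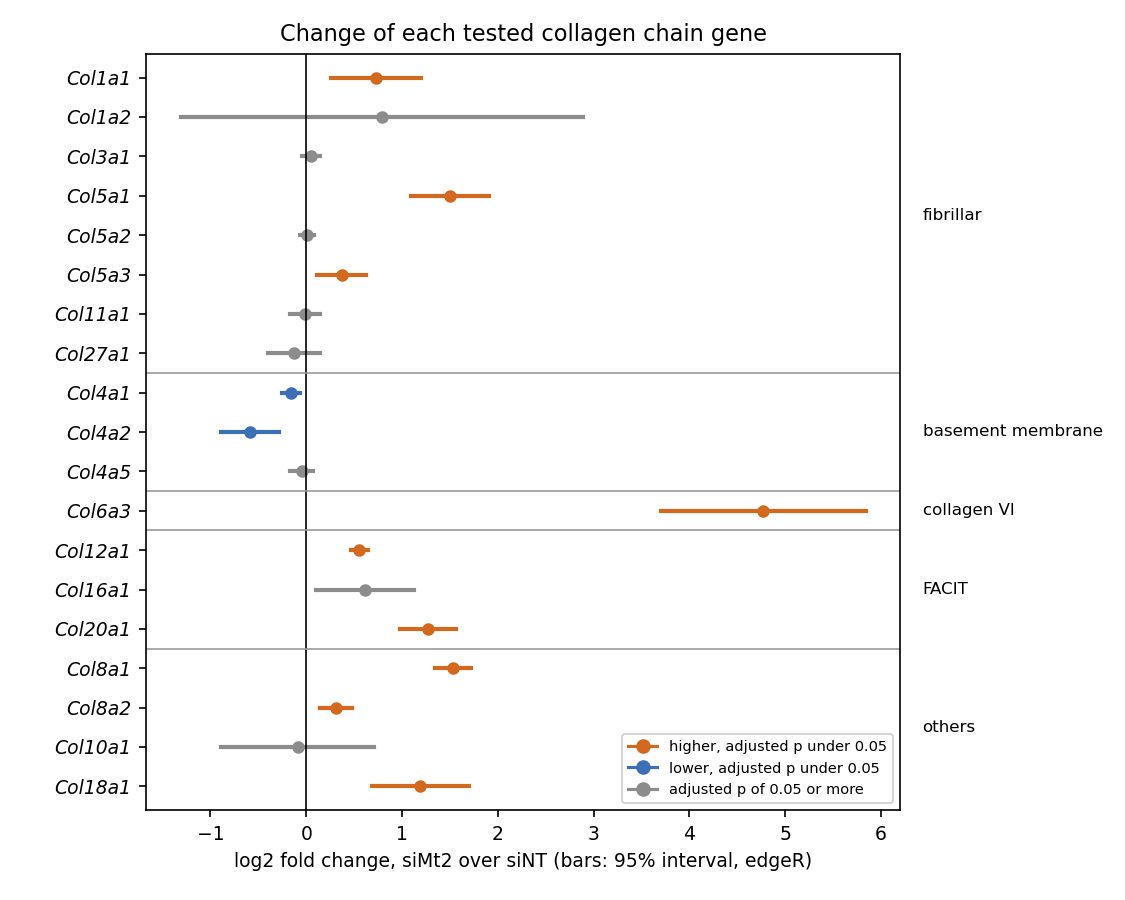
Log2 fold change of siMt2 over siNT for the same 19 genes, with 95% intervals from edgeR; orange genes were called higher, blue genes lower and grey genes not called. The interval of Col1a2 reaches from -1.31 to 2.89, whereas that of Col5a2 reaches only from -0.06 to 0.08.

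One library stands apart. In siMt2 replicate 3, the library with the lowest total, 16 of the 19 tested collagens had the lowest level of their group, compared with 36.1% of all genes tested. The median log2 difference of this library from the mean of the other siMt2 libraries was -0.21 for the 19 collagens and 0.02 for all genes. The gap was widest for Col1a2 (-1.64), which also varied widely within siNT, and for the scarce Col10a1 (-0.93). It was -0.53 for Col1a1, -0.66 for Col16a1, -0.55 for Col6a3, -0.52 for Col5a3, -0.41 for Col5a1 and -0.38 for Col4a2. For Col5a2 and Col12a1 it was -0.02 each, and for Col4a5, Col20a1 and Col11a1 it lay above 0. Without it, 11 collagens were called higher and 3 lower. All 11 of the original calls were kept, and Col16a1, Col3a1 and Col4a5 were added. The library was singled out from these same collagen values, so fits without it, here and below, are descriptions and lend no added support.

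Col1a1, the main chain of type I collagen, was the collagen with the most counts. It stood at 4877, 4568 and 4613 CPM in siNT and at 8387, 8916 and 6005 CPM in siMt2. Every siMt2 library lay above every siNT library, and siMt2 replicate 3 was the lowest of its group by a wide margin. The log2 fold change was 0.73 (SE 0.17, edgeR adjusted p = 0.0265). Without siMt2 replicate 3 it was 0.89 (SE 0.03, edgeR adjusted p = 1.07e-16), and without any 1 of the other libraries the call was lost (edgeR adjusted p = 0.0709 to 0.0983). The call was also lost with the replicate block (adjusted p = 0.0748) and without a filter on low counts (adjusted p = 0.0520).

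Col1a2, which supplies the second kind of chain in the type I trimer, was too variable to be called. It stood at 212, 479 and 311 CPM in siNT and at 326, 1147 and 237 CPM in siMt2. The groups overlapped, and siMt2 replicate 2 was 4.84 times siMt2 replicate 3. The fitted log2 fold change of 0.79 had an SE of 0.77 (edgeR adjusted p = 0.458), and it was -0.21 without siMt2 replicate 2. These swings are not counting error, since the smallest count was 675. After counting error was taken off, the coefficient of variation within groups was 68.4%, a value that 37 of 11726 tested genes exceeded, and 1 of the 2406 genes with a mean of at least 500 counts. The same measure was 14.3% for Col1a1 and 5.86% at the median of all genes.

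The ratio of Col1a1 to Col1a2 counts was accordingly unsteady. It was 23.0, 9.54 and 14.8 in siNT and 25.7, 7.77 and 25.3 in siMt2. Replicates of one group differed by as much as the groups did, and the difference of the mean log2 ratios was 0.21 (exact two-sided permutation p = 0.8) and ran from -0.10 to 0.78 with 1 library left out. No difference between the chains was therefore shown. Ratios compare counts that are not corrected for transcript length, so they are read only across libraries. Over 8 partner pairs in which both chains were tested, 5 ratios did not overlap between groups. Of all single genes tested 57.6% did not overlap, and no share over other gene pairs was computed. Several of the 5 ratios share Col5a1, so they are not separate results. Each of these 5 had an exact permutation p of 0.1, the smallest that 3 against 3 libraries allow, or 0.16 adjusted over the 8 pairs, so none could pass the threshold.

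**Figure D3:**
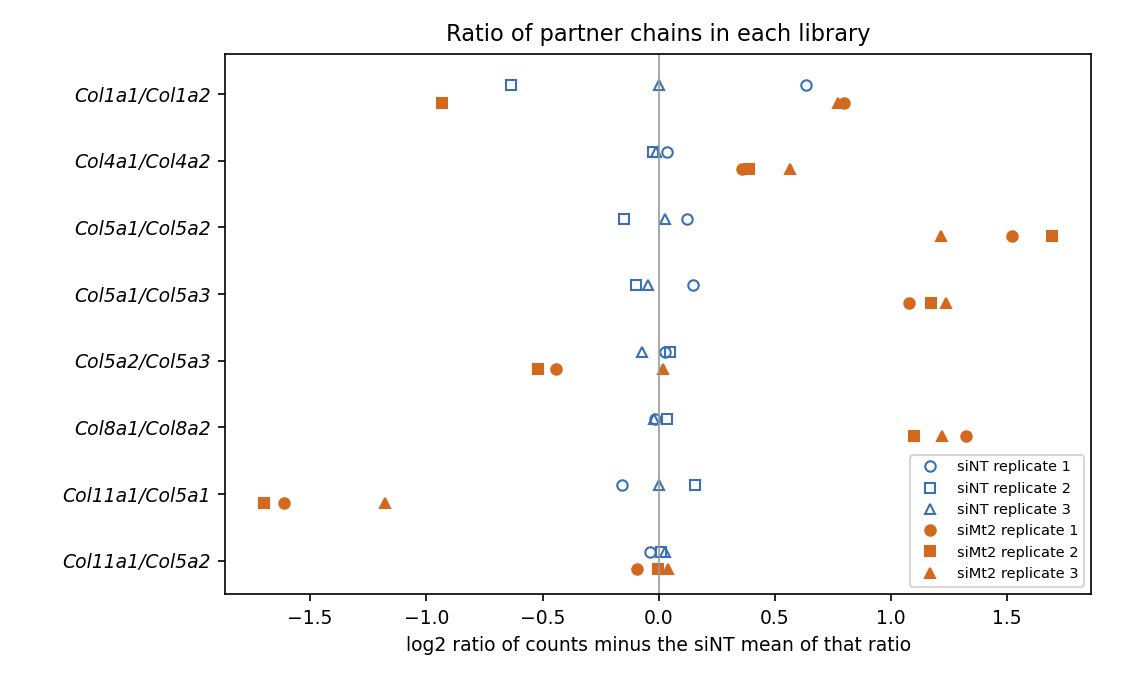
Log2 ratio of the counts of partner chains in each library, with the siNT mean of that ratio set to 0 (open blue siNT, filled orange siMt2). Col5a1/Col5a2 and Col8a1/Col8a2 shift by 1.48 and 1.21 with no overlap, Col11a1/Col5a2 does not leave the range of siNT by more than a small step, and Col1a1/Col1a2 scatters within both groups.

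Type V collagen, which starts fibrils and limits their width, changed in 1 of its main chains. Col5a1 stood at 270, 232 and 261 CPM in siNT and at 740, 828 and 588 CPM in siMt2. Every siMt2 value lay far above every siNT value, and the log2 fold change was 1.50 (SE 0.15, edgeR adjusted p = 0.00123), or 1.62 without siMt2 replicate 3. Col5a2, its partner in the common trimer, stood at 1570, 1627 and 1622 CPM in siNT and at 1633, 1621 and 1602 CPM in siMt2. The highest replicate was 1.04 times the lowest in siNT and 1.02 times in siMt2, and the 95% interval of its fold change ran from 0.959 to 1.06 (log2 fold change 0.01, SE 0.03, edgeR adjusted p = 0.813). The ratio of Col5a1 to Col5a2 counts went from 0.172, 0.143 and 0.161 to 0.453, 0.511 and 0.367, a rise of 2.78-fold.

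Col5a3, the chain of a rarer type V trimer, stood at 33.7, 34.3 and 37.3 CPM in siNT and at 48.5, 50.7 and 34.4 CPM in siMt2. Replicate 3 of siMt2 fell inside the siNT range, so the groups overlapped. The gene was called higher (log2 fold change 0.37, SE 0.12, edgeR adjusted p = 0.0165), and the call was lost in DESeq2 (adjusted p = 0.0912). It was also lost without siNT replicate 1, siNT replicate 2, siMt2 replicate 1 or siMt2 replicate 2 (edgeR adjusted p = 0.0726, 0.0676, 0.104 and 0.0879). Without siMt2 replicate 3, the library that makes the groups overlap, it was 0.49 (SE 0.10, edgeR adjusted p = 0.00012). The ratio of Col5a1 to Col5a3 moved from 7.99, 6.74 and 7.0 to 15.2, 16.3 and 17.0, with no overlap and with siMt2 replicate 3 highest. That of Col5a2 to Col5a3 overlapped between groups (difference of mean log2 ratios -0.31, exact permutation p = 0.2). Without siMt2 replicate 3 that difference was -0.48 (exact permutation p = 0.1).

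The other fibrillar chains with enough counts were not called. Col3a1, the type III chain that co-polymerizes with type I, stood at 1177, 1217 and 1172 CPM in siNT and at 1303, 1255 and 1131 CPM in siMt2. The groups overlapped through siMt2 replicate 3 (log2 fold change 0.05, SE 0.04, edgeR adjusted p = 0.360); without that library it was called at 0.11 (SE 0.03, edgeR adjusted p = 0.00195). In the rat annotation Col3a1 and Col5a2 are neighbours with no coding gene between them, and the fold change interval of Col3a1 ran from 0.971 to 1.11. Col11a1, a type XI chain that can also assemble with type V chains, stood at 79.0, 84.6 and 85.6 CPM and at 79.0, 83.4 and 84.9 CPM. Its groups overlapped throughout (log2 fold change -0.02, SE 0.07, edgeR adjusted p = 0.869), and its count ratio to Col5a2 differed by -0.02 on the log2 scale while its ratio to Col5a1 differed by -1.50. Col27a1, a chain known from cartilage, overlapped between groups at 35.1 ± 5.80 and 31.8 ± 3.18 CPM (edgeR adjusted p = 0.424).

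Type IV chains, which build basement membranes, were the collagens that fell. Col4a2 stood at 1540, 1586 and 1576 CPM in siNT and at 1154, 1098 and 865 CPM in siMt2. All siMt2 values lay below all siNT values, with siMt2 replicate 3 lowest, and the log2 fold change was -0.59 (SE 0.12, edgeR adjusted p = 0.0117), or -0.47 (SE 0.03) without that library. Col4a1, which joins Col4a2 in the most widespread type IV trimer, stood at 1893, 1867 and 1875 CPM and at 1775, 1721 and 1533 CPM. It also fell without overlap, but by less (log2 fold change -0.16, SE 0.04, edgeR adjusted p = 0.00461; -0.10 without siMt2 replicate 3).

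The paired genes behind the shared stretch shown above therefore moved the same way by unequal amounts. The ratio of Col4a1 to Col4a2 counts was 1.23, 1.18 and 1.19 in siNT and 1.54, 1.57 and 1.77 in siMt2. The groups did not overlap, and the ratio rose by 1.35-fold (exact permutation p = 0.1, the smallest possible; difference 0.37 to 0.48 on the log2 scale with 1 library left out). Col4a5, a chain of kidney and smooth muscle basement membranes, stood at 283, 288 and 287 CPM and at 270, 258 and 305 CPM. Replicate 3 of siMt2 was the highest value here, not the lowest, and the gene was not called (log2 fold change -0.05, SE 0.06, edgeR adjusted p = 0.480; -0.11 and adjusted p = 0.0371 without that library). Col4a6, which pairs with Col4a5, had 3 counts in all.

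Type VI collagen is normally built from Col6a1, Col6a2 and the long Col6a3 chain together. Of these, Col6a3 alone had enough counts to be tested. Its counts were 7, 0 and 1 in siNT and 88, 78 and 30 in siMt2, or 1.26, 0 and 0.153 CPM against 12.8, 18.4 and 10.5 CPM. All siMt2 values lay far above all siNT values (log2 fold change 4.77, SE 0.50, edgeR adjusted p = 1.50e-06), and 196 counts against 8 make a ratio of 28.6 with an exact 95% interval of 14.2 to 67.2 that covers counting error only. Col6a3 passed the filter on low counts only through siMt2, so that once tested it had to differ. The fitted value rests on few siNT counts: it was 6.89 without siNT replicate 1 and 4.25 without siNT replicate 3, and 4.0 in libraries thinned to equal depth.

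The partners of Col6a3 were near the detection limit in both groups. Col6a1 had 1, 1 and 6 counts in siNT and 3, 1 and 0 in siMt2, and Col6a2 had 16, 4 and 11 against 13, 4 and 7. The pooled ratio was 0.904 for Col6a2 (exact 95% interval 0.507 to 1.59) and 0.584 for Col6a1 (0.129 to 2.18), counting error only. Because Col6a3 passed the filter only through siMt2, a difference between it and these chains was not tested. The other type VI chains, Col6a4, Col6a5 and Col6a6, had 17, 44 and 9 counts in all, and each overlapped between groups. In the annotation Col6a1 and Col6a2 are direct neighbours, as are Col6a4, Col6a5 and Col6a6.

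Of the 3 FACIT collagens tested, 2 rose and the other was not called. Col12a1, which binds type I fibrils in tissue under tension, stood at 358, 339 and 352 CPM in siNT and at 519, 510 and 509 CPM in siMt2. The groups were far apart compared with their spread, replicate 3 included (log2 fold change 0.55, SE 0.04, edgeR adjusted p = 1.39e-09). Col20a1 stood at 13, 15.7 and 12.2 CPM and at 31.7, 31.3 and 35.5 CPM, again without overlap (1.27, SE 0.14, edgeR adjusted p = 2.60e-07). Col16a1, found with fibrils and near basement membranes, stood at 100.1, 96.2 and 106 CPM and at 165, 182 and 109.5 CPM.

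Col16a1 shows how much 1 library can weigh. Its groups did not overlap, but siMt2 replicate 3 lay just above the highest siNT value, and the call was missed (log2 fold change 0.62, SE 0.20, edgeR adjusted p = 0.0539). Without siMt2 replicate 3 it was 0.77 (SE 0.06, edgeR adjusted p = 3.89e-14). DESeq2 and limma-voom called it with all libraries (adjusted p = 0.0264 and 0.000884).

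Type VIII collagen forms networks from Col8a1 and Col8a2, and both rose. Col8a1 stood at 38.2, 35.3 and 35.6 CPM in siNT and at 112, 106 and 95.1 CPM in siMt2, a log2 fold change of 1.53 (SE 0.09, edgeR adjusted p = 1.75e-11). Col8a2 stood at 82.1, 73.1 and 76.8 CPM and at 95.5, 105 and 86.7 CPM (0.31, SE 0.08, edgeR adjusted p = 0.00289). Neither overlapped, and the rise of Col8a1 was the larger. The ratio of Col8a1 to Col8a2 counts went from 0.465, 0.483 and 0.464 to 1.18, 1.01 and 1.10, a rise of 2.32-fold in which siMt2 replicate 3 lay between the other siMt2 libraries.

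Col18a1, the basement membrane chain that contains endostatin, was scarce. It stood at 3.78, 7.15 and 5.50 CPM in siNT and at 14.0, 11.8 and 10.5 CPM in siMt2, without overlap (log2 fold change 1.19, SE 0.24, edgeR adjusted p = 0.000375). Col10a1, the chain of hypertrophic cartilage, had 5 to 30 counts per library and overlapped (log2 fold change -0.09, SE 0.38, edgeR adjusted p = 0.861).

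The 16 genes below the filter held 3 to 55 counts each, at most 16 in any library. They were the 5 remaining type VI chains, Col2a1, Col11a2 and Col24a1 among fibrillar chains, Col9a2, Col9a3, Col14a1, Col19a1 and Col22a1 among FACITs, and Col4a6, Col7a1 and Col17a1. Most overlapped between groups, and the 3 whose values as counted did not were Col17a1, Col22a1 and Col24a1. Each of these 3 holds a count of 0 whose limit, as set above, reaches into the other group, so none was clearly apart. For Col24a1 the nearest values were 0.476 CPM in siNT replicate 2 and 0.471 CPM in siMt2 replicate 2. These 3 are given because their values as counted were apart, and the share over other genes below the filter was not computed. Col17a1, a hemidesmosome collagen of epithelia, had 1, 0 and 0 counts in siNT and 11, 2 and 2 in siMt2, a pooled ratio of 17.5 (exact 95% interval 2.69 to 737, counting error only). It was called higher when no filter was used. Col22a1 had 10 counts against 2 (ratio 0.233, exact interval 0.0249 to 1.10) and Col24a1 had 16 against 5 (0.365, 0.104 to 1.04), so counting error alone spans no change for both.

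**Figure D4:**
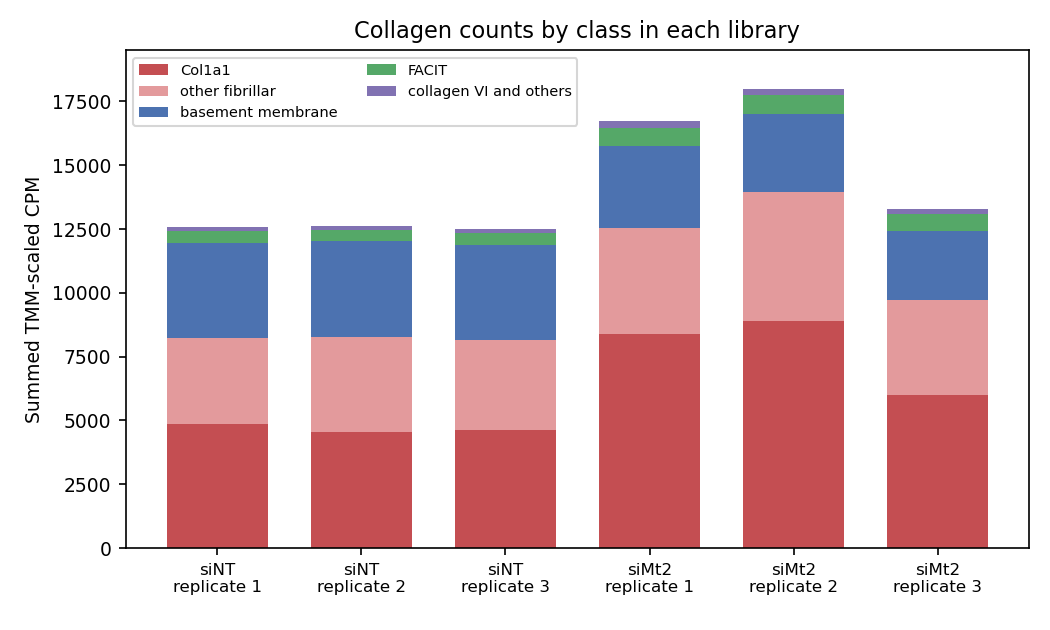
Summed TMM-scaled CPM of all 35 collagen genes in each library, stacked by class with Col1a1 drawn apart from the other fibrillar chains; the axis starts at 0. The siNT libraries reach 12483 to 12604, and the siMt2 libraries reach 16715, 17992 and 13286, with siMt2 replicate 3 lowest of its group.

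As a sum, collagen transcripts took a larger part of the siMt2 libraries. A larger share of their counts came from fibrillar chains, mainly Col1a1, and a smaller share from basement membrane chains. Summed levels were 12577, 12604 and 12483 CPM in siNT and 16715, 17992 and 13286 CPM in siMt2. Without Col1a1 the sums overlapped (7699, 8036 and 7870 CPM against 8328, 9075 and 7282 CPM), and without siMt2 replicate 3 they did not overlap. Mean sums were 12554 ± 63.2 and 15998 ± 2433 CPM with Col1a1 included, and 7868 ± 168 and 8228 ± 901 CPM with it left out. Type IV chains supplied 29.7% ± 0.201 of collagen counts in siNT and 18.9% ± 1.64 in siMt2, and fibrillar chains 65.5% ± 0.253 and 75.2% ± 2.18. Col1a1 alone supplied 37.3% ± 1.31 and 48.3% ± 2.72. Of 8 tested fibrillar genes 3 were called (37.5%), beside 50.9% of all genes tested. FACIT chains supplied 3.73% ± 0.0965 and 4.43% ± 0.464, and type VI chains 0.0336% ± 0.0210 and 0.122% ± 0.0178. In both shares of the main classes siMt2 replicate 3 lay on the same side of siNT as its group, at 20.3% for type IV and 73.1% for fibrillar chains. These are shares of counts and not of molecules, and no test was made of the sums.

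Genes that mature collagen went both ways. Of 32 listed genes for hydroxylation, folding, processing and crosslinking, 26 were tested, 12 rose, 5 fell and 9 were not called, with a median log2 fold change of 0.13. The 65.4% that were called stand beside 50.9% of all genes tested. The crosslinking oxidase genes Loxl4 (125 ± 6.29 to 253 ± 8.70 CPM), Loxl2 (64.2 ± 3.92 to 151 ± 9.32 CPM) and Loxl3 (128 ± 12.1 to 257 ± 8.91 CPM) rose by 1.0 to 1.2 on the log2 scale, and Lox rose by 0.50. Another member of the family, Loxl1, fell (log2 fold change -0.37, SE 0.11, edgeR adjusted p = 0.0154). The prolyl hydroxylase gene P4ha1, whose product stabilizes the helix, rose from 582 ± 26.3 to 843 ± 7.24 CPM.

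Receptors for collagen went both ways. Of 10 tested, 5 rose, 4 fell and 1 was not called, with a median log2 fold change of 0.04, beside 50.9% called over all genes tested. Antxr1, whose product binds collagens including type VI, had 272 ± 6.32 CPM in siNT and 114 ± 3.19 CPM in siMt2, a fall (log2 fold change -1.26, SE 0.05). Itga11, the integrin chain for fibrillar collagen on fibroblasts, rose from 139 ± 6.88 to 330 ± 13 CPM (1.25, SE 0.05), and the receptor kinase gene Ddr2 (0.48) and Cd44 (0.33) rose as well. Of 8 degradation genes tested 2 rose, 3 fell and 3 were not called, with a median of 0.05, and these 62.5% called lie near the 50.9% of all genes tested; Timp2, a protease inhibitor, fell by 0.64 on the log2 scale and Ctsb by 0.44, while Ctsl (0.25) and Mmp16 (0.35) rose.

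Markers of other cell types that could be in these cultures are given beside the collagens. Of 8 fibroblast markers other than collagens, 5 were tested and called higher, where 25.8% of all genes tested were. Dcn (4, 5 and 0 counts in siNT, 14, 12 and 15 in siMt2) and Lum (5, 0 and 2 against 23, 11 and 10) passed the filter only through siMt2, the group in which they are high, so their direction carries no weight. Postn, Vim and Thy1 rose from a clear siNT level, by 1.25, 0.68 and 0.80 on the log2 scale. The summed level of the list was 1440 to 1479 CPM in siNT and 2480 to 2510 CPM in siMt2, a range that includes siMt2 replicate 3. Most of this sum was Vim, at 1054 ± 28.8 and 1686 ± 53.6 CPM. Of these 8, Tcf21 and Fap were not in the tables and Pdgfra was listed at 0 in all but 1 library. Of 7 smooth muscle and pericyte markers, 6 were tested, 4 rose, Pdgfrb fell (log2 fold change -0.46) and Cspg4 was not called, beside 50.9% called over all genes tested, with summed levels of 2310 to 2352 and 4075 to 4168 CPM. Their part in the collagen differences was not tested, and in bulk RNA more cells of a type and more RNA per cell cannot be told apart. Endothelial markers summed to 5.24 to 7.18 and 3.54 to 8.78 CPM, with Pecam1, Cdh5 and Kdr not in the tables. Most of this sum was Vwf, at 5.89 ± 1.27 and 5.10 ± 2.88 CPM. Schwann cell markers (1.08 to 3.57 and 1.40 to 2.76 CPM) were near the detection limit. Cartilage markers summed to 8.10 to 10.5 and 7.54 to 10.5 CPM, adipocyte markers to 24.7 to 27.2 and 18.9 to 23.2 CPM, and leukocyte markers to 21.7 to 26.0 and 13.5 to 16.7 CPM. Mesothelial and epicardial markers summed to 139 to 147 and 149 to 155 CPM. Of the few tested genes in these last lists, Msln rose, Tbx18 and the leukocyte gene Cd14 fell, and Vwf, Sox9 and Lpl were not called.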

How the data were processed

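The authors deposited 1 file of raw counts per gene for each of the 6 libraries, with no normalization applied. Libraries were made with a SMARTer kit from total RNA, per the labels' protocols. Trimmomatic 0.40, HISAT2 2.2.1, DESeq2, limma, featureCounts and build rn6 are listed, per the submitters' processing notes, with no role or order. Strand and multi-mapping settings are not given in the sources used here. Gene names that a spreadsheet had turned into dates were spelled differently between files and were matched by date; 0 columns were left without a sample.

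Counts were fitted over the whole table in R 4.3.3 with edgeR 4.0.16: filterByExpr (minimum count 10), TMM scaling and the robust two-sided quasi-likelihood test. P-values were adjusted by Benjamini-Hochberg across every gene that passed the filter, and a call needed an adjusted p under 0.05. The SE is the fold change over the root of the F value. Ratios of partner chains used counts plus 0.5 and an exact permutation test over 20 assignments. Alternatives were other scalings and filters, the replicate block, each library left out, thinning, DESeq2 1.42.0 and limma-voom (limma 3.58.1). The procedure was checked on simulated counts. Chi-square statistics between replicates had medians of 1.57 to 2.28 times what sampling alone gives, so no library was taken as a repeat of another.

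The collagen members and all lists were chosen with earlier results of these data known. Full values were given by rule for called collagens and their partner chains. Col3a1, Col4a5 and Col16a1 are also given in full, and Col17a1, Col22a1 and Col24a1 by their counts, a choice made after their values were seen. Values were given for at most 4 genes of each other list, those with the smallest adjusted p, and beyond these for Dcn, Pdgfra, Cspg4, Lox and Loxl1, chosen after their values were seen. Proteins and transcript lengths were not used here, so sums and rankings over different genes are of counts and not of amounts of molecules.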

Additional observations from a re-analysis of the deposited data

How the results depend on the processing

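Across DESeq2's size factors, upper quartile scaling, library totals, no filter, a stricter filter, the replicate block, thinning, DESeq2 and limma-voom, 8 to 10 collagens were called higher and 2 lower; with 1 library left out, 7 to 11 were called higher and 2 to 3 lower. The replicate block gave 8 higher and 2 lower, losing Col1a1 and no other call. Over all genes tested, same-numbered libraries did not deviate together (correlations -0.00182, -0.06 and 0.0234 for numbers 1, 2 and 3), so the numbers were not taken as pairs. Col1a2, however, was highest in replicate 2 of both groups. With the replicate block its log2 fold change was 0.55 (SE 0.46, edgeR adjusted p = 0.442). Directions reversed only for genes that were not called: Col11a1 was 0.022 with upper quartile scaling and 0.019 with thinned libraries, and between -0.057 and 0.021 with 1 library left out. Col5a2 was -0.0042 without a filter and between -0.012 and 0.021 with 1 library left out. Left out in turn, libraries gave -0.11 to 0.00018 for Col4a5, -0.21 to 1.13 for Col1a2 and -0.54 to 0.10 for Col10a1. The cause was not tested. Among ratios of partner chains that overlapped between groups, Col1a1/Col1a2 (-0.10 to 0.78) and Col11a1/Col5a2 (-0.05 to 0.02) changed sign as well. The Col5a2/Col5a3 ratio, which also overlapped, kept its sign (-0.48 to -0.21). Depth limits the 16 scarce chains, which held at most 55 counts each over all libraries.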
